A study of Mus musculus with 13 samples.

Results

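The neurotrophins BDNF (Bdnf) and NT-3 (Ntf3), the receptors TrkB (Ntrk2), TrkC (Ntrk3) and p75 (Ngfr), the sorting receptor sortilin (Sort1) and the secreted granule protein VGF (Vgf) were followed in the CA1 region after the loss of one of its excitatory inputs. These 7 genes were selected by symbol from the 55291 gene symbols of each count table, and all 7 were present in every library. RNA had been sequenced from 13 CA1 regions, each cut from a single organotypic entorhino-hippocampal tissue culture of wildtype C57BL/6 mice. The cultures had been prepared at postnatal day 4 to 5 and kept for at least 18 days in medium with horse serum. The control group consisted of 5 non-lesioned cultures. In 4 cultures the Schaffer collaterals, which run from CA3 to CA1, had been cut (SCL), and in 4 others the perforant path from the entorhinal cortex had been cut (ECL). Tissue was taken 3 days after the lesion, without the scar. Which cultures came from the same animal is not given in the sources used here. All groups were slices without the remaining afferents of an intact brain. The sample titles name CA1 as the tissue, while the extraction text kept with them speaks of the dentate gyrus. All 6 CA1 pyramidal markers were detected in every group, with a summed level of 8566 to 10809 normalized counts per library in control, 8041 to 10103 after SCL and 7161 to 12674 after ECL. The 6 markers of dentate granule cells were detected as well, at sums of 862 to 1054, 665 to 819 and 802 to 873. So were the 6 markers of CA3 pyramidal cells, at 1046 to 2227, 1011 to 2862 and 1170 to 3418. Each sum depends on the markers chosen, so these sums do not measure the purity of the tissue.

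Neurotrophins are secreted proteins that bind receptor tyrosine kinases of the Trk family: BDNF and NT-4 bind TrkB, and NT-3 binds mainly TrkC. Their uncleaved precursors bind p75 together with sortilin, and sortilin also carries proBDNF into the regulated secretory pathway. In hippocampal neurons, BDNF is transcribed from several promoters in response to synaptic activity, is stored with chromogranins in dense core vesicles, and acts on TrkB at synapses.

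Bdnf lies on chromosome 2 from 109674700 to 109727007 on the plus strand (GRCm38, as are all positions here). The annotation gives it 11 transcripts with 9 different starts, all 11 ending at the same 3′ end, so the gene count sums all promoters. RefSeq (GRCm38.p6) lists windows of 250 bases upstream of 7 Bdnf starts. The window of the first start and the one that holds the short form of the cAMP response element (CRE), a site bound by the activity-dependent factor CREB, are shown to let the sum of promoters be seen in sequence. The first, chr2:109674450-109674699, lies upstream of the gene, and the second, chr2:109692186-109692435, lies 17736 bases further downstream, inside the gene and outside its exons. Both are on the plus strand, and capitals mark this short CRE, CGTCA, which reads TGACG on the other strand and begins 35 bases before the start.
Bdnf first start: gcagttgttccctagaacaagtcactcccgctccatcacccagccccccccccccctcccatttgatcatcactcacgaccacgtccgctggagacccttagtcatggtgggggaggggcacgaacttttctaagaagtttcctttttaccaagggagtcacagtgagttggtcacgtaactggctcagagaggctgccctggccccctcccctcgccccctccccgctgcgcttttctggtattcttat
Bdnf start with short CRE: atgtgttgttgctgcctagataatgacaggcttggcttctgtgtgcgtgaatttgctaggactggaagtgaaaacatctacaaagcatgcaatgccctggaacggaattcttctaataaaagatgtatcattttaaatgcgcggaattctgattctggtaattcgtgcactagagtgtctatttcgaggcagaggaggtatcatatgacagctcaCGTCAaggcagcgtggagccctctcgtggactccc
The short CRE TGACG was searched on both strands and found in 1 of the 7 Bdnf windows. It was found in 17.8% of 32851 promoter windows of the same length. The AP-1 motif TGANTCA was found in 1 other Bdnf window, against 6.75% of all windows. The full CRE TGACGTCA (1.55% of all windows, each of which also holds the short one) and the EGR motifs GCGTGGGCG and GCGGGGGCG (3.06%) were in none of the 7. These matches are descriptions of letters and not of binding. The table holds 2 windows for Ntf3 and 1 each for Ntrk2 and Ngfr, none of which held any of these motifs. The Ntrk2 window is shown as that of the BDNF receptor. It lies at chr13:58806319-58806568, upstream of the gene on the plus strand, with no part in capitals.
Ntrk2: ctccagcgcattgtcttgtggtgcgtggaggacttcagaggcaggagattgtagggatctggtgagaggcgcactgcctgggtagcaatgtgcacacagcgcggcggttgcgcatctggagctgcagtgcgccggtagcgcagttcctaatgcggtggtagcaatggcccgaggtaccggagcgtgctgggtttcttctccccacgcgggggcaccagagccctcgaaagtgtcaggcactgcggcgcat
Ntrk3, Sort1 and Vgf have no entry there.

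The values below are normalized counts unless stated otherwise: the number of reads assigned to a gene, scaled so that the 13 libraries can be compared (TMM factors, mean effective library size). Library totals were 14371152 to 21092612 counts in control, 16405517 to 56786613 in SCL and 20210165 to 46449937 in ECL libraries. The geometric mean of the totals was 1.83 times that of control after SCL and 1.52 times after ECL (2 two-sided exact permutation tests, exact p = 0.0476 and p = 0.0159, adjusted p = 0.0476 and p = 0.0317, smallest possible p 0.00794). Fold changes are log2 values from edgeR's quasi-likelihood test, with p-values adjusted over all genes with a mean of at least 150 normalized counts and a threshold of 0.05. Both lesions were compared with the same 5 control libraries. With this test, 24.6% of 11733 genes changed after SCL, 27.6% of 11392 genes changed after ECL, and 0 (0%) of 12478 genes differed between ECL and SCL (918 at an unadjusted p under 0.05, and 64 with DESeq2). Among the genes called, 52.9% were higher after SCL and 54.9% after ECL, which became 80.9% and 78.0% with scaling factors computed over all symbols, a scaling that moved the median log2 fold change of all genes tested to 0.21 and 0.18.

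Of the 7 genes, 5 reached the mean minimum and were tested in each comparison. After SCL, 1 of them passed the test: Sort1 was higher, by 0.40 on the log2 scale. After ECL, 0 of 5 passed, with 3 at an unadjusted p under 0.05 (Bdnf and Ntrk2 lower, Sort1 higher), beside 40.2% of all genes tested at that limit. The median log2 fold change of the 5 genes was -0.18 after SCL and -0.35 after ECL, beside 0.01 and -0.01 over all genes tested. Between ECL and SCL, 0 of the 5 had an unadjusted p under 0.05, beside 7.36% of all genes. Members of the family were thus called in 1 of 5 cases after SCL, near the share of all genes, and in none after ECL.

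**Figure D1:**
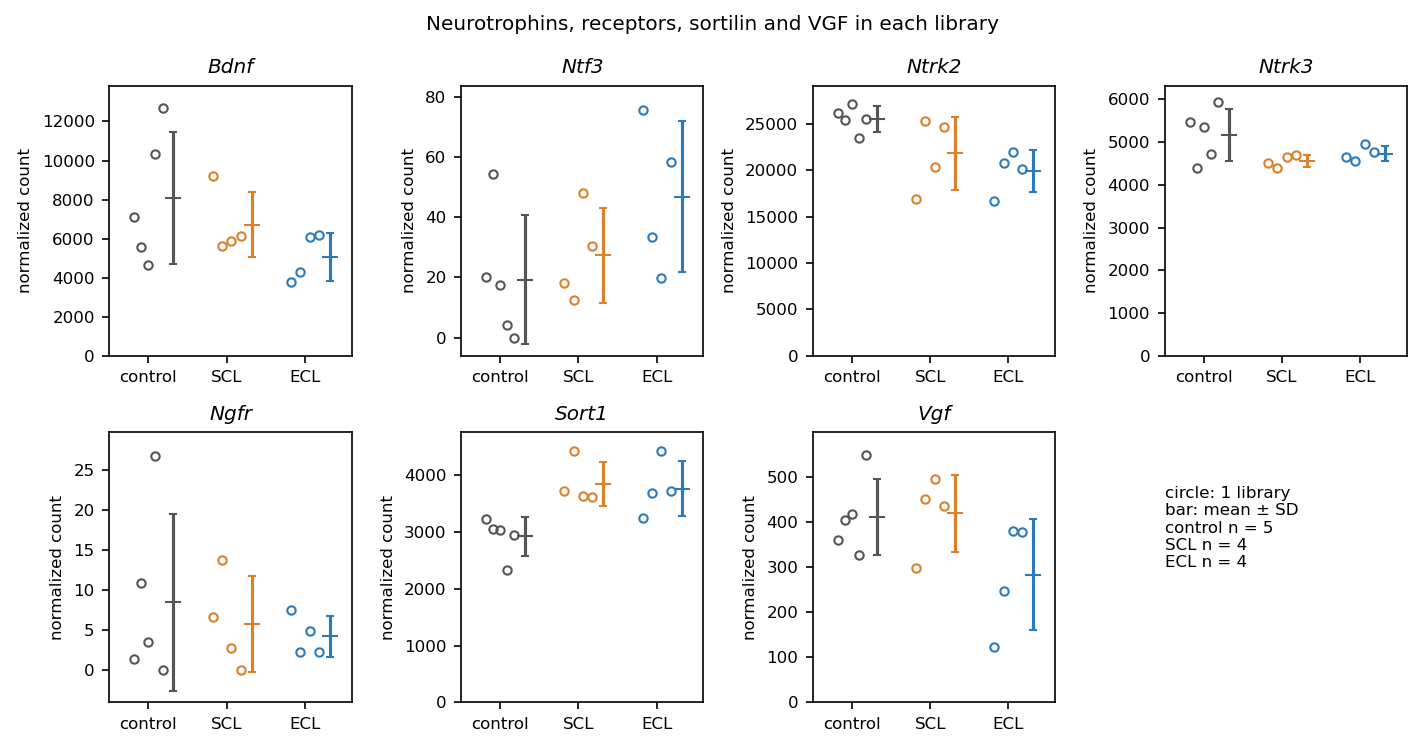
Normalized count of each of the 7 genes (vertical axes, linear, in normalized counts) in every library of the control, SCL and ECL groups, with the mean and SD beside the circles. Sort1 of all 4 SCL and all 4 ECL libraries lies above all 5 controls, and Ntrk2 of all 4 ECL libraries lies below them. Among all genes tested, 11.9% lay above control without overlap after SCL, and 12.8% above and 12.1% below it after ECL. Ntf3 and Ngfr stay under 80 normalized counts.

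Levels per transcript length were compared as TPM, in which counts are divided by exon length (GENCODE M21) and scaled to the same sum in every library. In control, Ntrk2 had 129 ± 12.5 TPM and Bdnf 126 ± 50.9 TPM (SD, n = 5), and their ranges overlapped. Sort1 followed with 37.7 ± 5.93 TPM, below every Bdnf value, and Ntrk3 with 16.7 ± 2.38 TPM, below every Sort1 value. Vgf, at 13.6 ± 3.11 TPM, overlapped with Ntrk3. Ntf3 had 1.11 ± 1.25 TPM and Ngfr 0.230 ± 0.286 TPM, and their ranges overlapped. Of the genes compared here, the transcripts of BDNF and of its receptor TrkB were thus the most abundant in these CA1 isolates, while the p75 transcript was close to the detection limit. Ntrk2, Bdnf, Sort1 and Ntrk3 kept this order of means after both lesions. After ECL, the range of Bdnf (56.5 to 97.0 TPM) reached down into that of Sort1 (39.7 to 58.0 TPM), which it did not in the other groups. The exon lengths cover all annotated transcripts of a gene, so a TPM value is low for a gene of which mainly short transcripts are made.

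**Figure D2:**
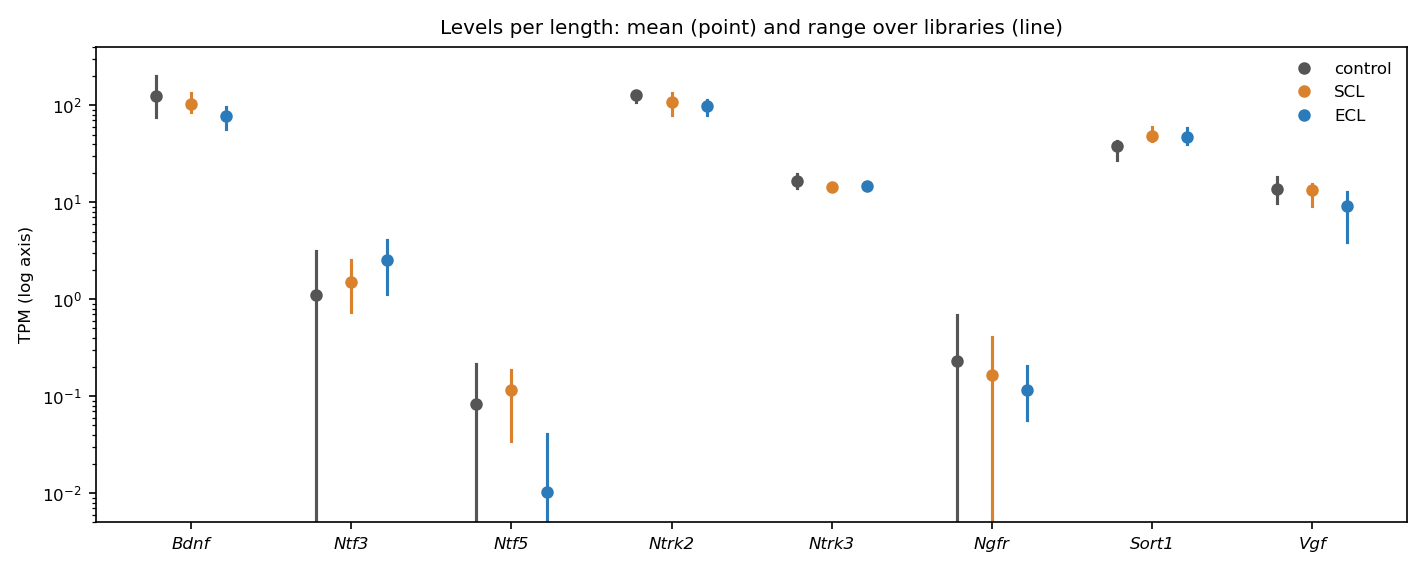
Level per length in TPM (vertical axis, logarithmic) of the neurotrophins Bdnf, Ntf3 and Ntf5, the receptors Ntrk2, Ntrk3 and Ngfr, and Sort1 and Vgf, with points for the mean of a group and lines for the range over its libraries (a line that reaches the lower edge includes a library at 0). Ntrk2 and Bdnf are highest in all 3 groups, and Ngfr and Ntf5 have group means under 1 TPM.

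Bdnf, the most abundant of the neurotrophin genes Bdnf, Ntf3 and Ntf5, had a coefficient of variation of 41.9% between control cultures. In controls 1 to 5 it was at 7111, 5550.5, 4642, 10327 and 12712 normalized counts (mean 8068 ± 3379, SD, n = 5). After SCL the values were 9187, 5618, 5864 and 6158 (6707 ± 1668, n = 4), and after ECL they were 3779, 4282, 6064 and 6204 (5082 ± 1233, n = 4). Controls 4 and 5 were above every lesioned culture, while controls 2 and 3 lay below all SCL values and within the ECL range. All groups overlapped. The log2 fold change was -0.26 after SCL (SE 0.27, adjusted p = 0.506) and -0.66 after ECL (SE 0.27, 95% interval -1.23 to -0.08, unadjusted p = 0.0278, adjusted p = 0.0821). Neither passed the test. After ECL the adjusted p was 0.0498 without control 2, 0.0293 without control 3 and 0.0417 with DESeq2. Directly compared, ECL and SCL differed by -0.39 (SE 0.21, adjusted p = 0.737). Of the 6217 exon bases of Bdnf, 896 (14.4%) are shared with the antisense gene Gm45346, and since reads were counted without strand, those of both genes cannot be told apart there. Gm45346 itself had 0 to 8 counts per library.

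Ntf3, on chromosome 6 from 126101412 to 126166910 on the minus strand, was at low counts. Control libraries held 14, 40, 10, 3 and 0 counts, which is 20.2, 54.4, 17.4, 4.23 and 0 normalized counts, where a count of 0 allows a level of up to 5.20 (3 counts in that library, counting error only), or up to 10.4 if both mates of a pair were counted, when 3 fragments give 6 counts. After SCL it was at 18.2, 12.4, 48.2 and 30.6, and after ECL at 75.7, 33.6, 19.8 and 58.4 normalized counts. Only ECL 1 and ECL 4 exceeded the highest control, and every group overlapped with the others. In a fit that took genes with a mean of at least 10, the log2 fold change was 0.55 after SCL (SE 0.86, adjusted p = 0.690) and 1.34 after ECL (SE 0.78, adjusted p = 0.242), beside 16.3% and 22.7% of all genes called in that fit. Neither passed the test.

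Ntrk2 encodes TrkB, and its gene spans chromosome 13 from 58806569 to 59133970 on the plus strand. In control it was at 26147, 25441, 27166, 23431 and 25471 normalized counts, a narrow range (25531 ± 1367, SD, n = 5). After SCL it was at 16908, 25298, 20359.7 and 24659 (21806 ± 3933, n = 4). After ECL it was at 16727, 20785, 21939 and 20172 (19906 ± 2242, n = 4). All 4 ECL cultures lay below all 5 controls, as in 12.1% of all genes tested, while after SCL 2 cultures lay within the control range and 2 below it. The log2 fold change was -0.23 after SCL (SE 0.15, adjusted p = 0.280) and -0.35 after ECL (SE 0.14, 95% interval -0.64 to -0.06, unadjusted p = 0.0212, adjusted p = 0.0672). It passed the threshold after ECL with DESeq2 (adjusted p = 0.0297) and without control 4 (adjusted p = 0.0485), and in no other of 21 alternatives. ECL and SCL differed by -0.12 (SE 0.17, adjusted p = 0.919). The annotation lists 10 Ntrk2 transcripts, 7 of them coding, and the gene count does not separate full-length TrkB, which has the kinase domain, from truncated TrkB, which lacks it and is a major form in astrocytes. In bulk tissue, fewer cells of a type and less RNA per cell cannot be told apart. The sums of 8 astrocyte markers (205333 to 338003 in control, 253918 to 351005 after SCL, 235116 to 312173 after ECL) and of 7 neuronal markers (101272 to 133133, 90230 to 122124 and 85233 to 128264) overlapped between groups. Of the 8 astrocyte markers 4 rose after SCL and 3 after ECL, beside 13% and 15.1% of all genes tested that were called higher. Of the 7 neuronal markers 2 fell after SCL and 4 after ECL, beside 11.6% and 12.4% called lower. The part of these cell types in the values of the 7 genes was not tested.

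TrkC is encoded by Ntrk3 on chromosome 7 from 78175959 to 78738012, minus strand. Controls were at 5458, 4393, 5345, 4715 and 5931 normalized counts (5168.5 ± 613, SD, n = 5). SCL cultures were at 4512, 4389, 4655 and 4689 (4561 ± 138, n = 4), and ECL cultures at 4648, 4552, 4955 and 4761 (4729 ± 173, n = 4). The lesioned cultures were closely spaced, and all but SCL 2 lay within the control range. The log2 fold change was -0.18 after SCL (SE 0.12, 95% interval -0.45 to 0.09, adjusted p = 0.304) and -0.12 after ECL (SE 0.13, 95% interval -0.40 to 0.16, adjusted p = 0.516). Its sign turned after both lesions with scaling factors computed over all symbols. ECL and SCL differed by 0.06 (SE 0.11, adjusted p = 0.936). Kinase-containing and truncated TrkC, encoded by 6 coding of 20 annotated transcripts, are not separated either.

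The p75 receptor gene Ngfr (chromosome 11, 95568818 to 95587735, minus strand) had 1, 8, 2, 19 and 0 counts in the control libraries, 7, 31, 4 and 0 after SCL and 13, 2, 4 and 2 after ECL. The groups overlapped. The counts of 0 in control 5 and SCL 4 allow levels of up to 5.20 and 4.59 normalized counts, or 10.4 and 9.17 at 6 counts. In a fit without a minimum, the log2 fold change was -0.21 after SCL (SE 1.01, adjusted p = 0.907) and -0.69 after ECL (SE 1.04, adjusted p = 0.654), beside 11.2% and 16.8% of all genes called in that fit, and its sign turned after both lesions without control 4. Neither passed the test.

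Sortilin is encoded by Sort1 on chromosome 3 from 108284082 to 108361511, plus strand. The controls were at 3234, 3053, 3031, 2330.2 and 2946 normalized counts (2919 ± 345, SD, n = 5). After SCL it was at 3717, 4417, 3634 and 3608 (3844 ± 385, n = 4), and after ECL at 3238, 3675, 4415 and 3714 (3760.4 ± 487, n = 4). Every lesioned culture was above every control, although ECL 1 exceeded control 1 by less than 4 normalized counts. Among all genes tested, 11.9% were above control without overlap after SCL and 12.8% after ECL. The log2 fold change was 0.40 after SCL (SE 0.13, 95% interval 0.11 to 0.68, adjusted p = 0.0420), past the threshold like 13% of all genes in the same direction. After ECL it was 0.37 (SE 0.14, 95% interval 0.07 to 0.68, unadjusted p = 0.0193, adjusted p = 0.0633), not past the threshold. The call after SCL was lost without any 1 of the 9 libraries (log2 fold change 0.32 to 0.43, adjusted p = 0.0532 to 0.129) and with the sex of the culture as a term (0.41, adjusted p = 0.0539). Without SCL 2, the highest library, it was 0.33 (adjusted p = 0.129). After ECL it was past the threshold in 5 of 21 alternatives, among them the fit without ECL 1 (adjusted p = 0.0447). ECL and SCL differed by -0.02 (SE 0.14, 95% interval -0.32 to 0.28, adjusted p = 0.991). The antisense gene Gm12523 shares 338 (4.47%) of the Sort1 exon bases and had 0 to 8 counts per library.

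Microglia markers moved with the lesions: all 8 rose after SCL and 4 of 8 rose after ECL. The share of all genes tested that were called higher was 13% after SCL and 15.1% after ECL. The summed level of the microglia markers was 8454 to 9678 in control, 16870.1 to 31936 after SCL and 14722 to 24272 after ECL, with no marker at 0. Whether Sort1 was higher in microglia or other cells was not tested.

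**Figure D3:**
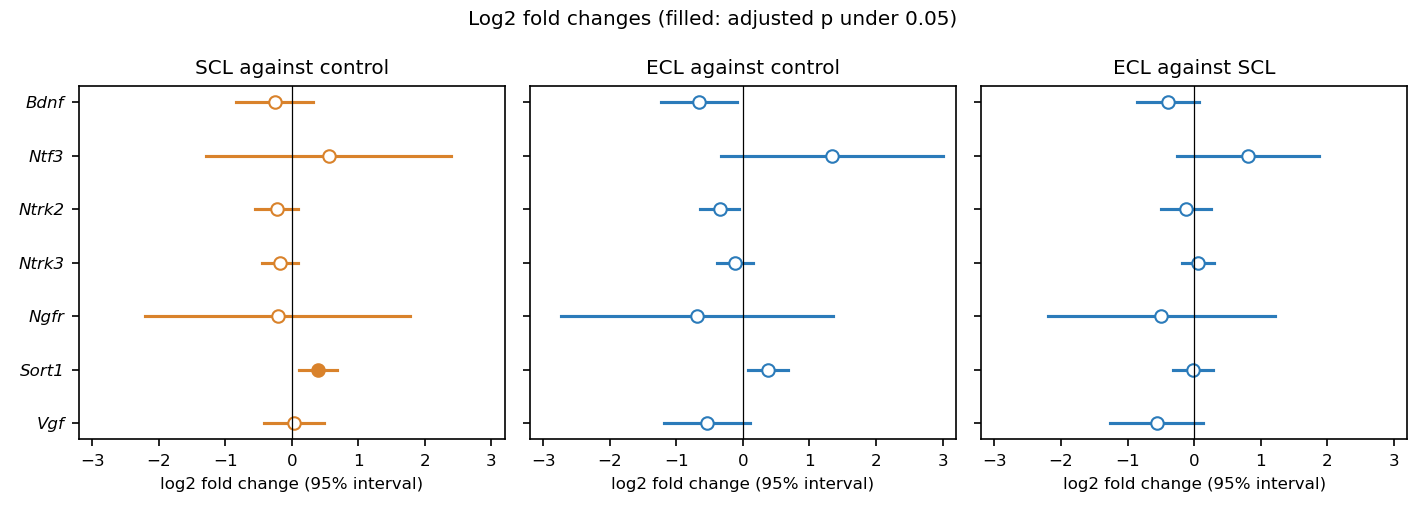
Log2 fold change of the 7 genes (points) with 95% intervals (lines) for SCL against control, ECL against control and ECL against SCL, filled where the adjusted p was under 0.05. Sort1 after SCL (0.40) is the only filled point, and the intervals of Bdnf, Ntrk2 and Sort1 after ECL do not include 0. Ntf3 comes from the fit with a mean minimum of 10 and Ngfr from the fit without one.

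Vgf, a granule protein whose transcription responds to neurotrophins, lies on chromosome 5 from 137026392 to 137033351 on the plus strand. It was at 360.01, 405, 419, 327 and 549.9 normalized counts in control (412 ± 85.1, SD, n = 5), at 298, 453, 496 and 436 after SCL (421 ± 85.5, n = 4) and at 124, 249, 382 and 379.5 after ECL (284 ± 123, n = 4). ECL 1 and ECL 2 lay below every other culture, and ECL 3 and ECL 4 within the control range. The log2 fold change was 0.03 after SCL (SE 0.21, adjusted p = 0.931) and -0.54 after ECL (SE 0.30, adjusted p = 0.202), and ECL and SCL differed by -0.56 (SE 0.32, adjusted p = 0.745). In none of the 3 comparisons did Vgf pass the test. After SCL its sign turned without control 1, control 4, SCL 2 or SCL 3, with values of -0.05 to -0.00092 in those fits.

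Ntf5, which encodes the other TrkB ligand NT-4, was scarce, with 0 to 8 counts per library. It had 4, 2, 0, 2 and 0 counts in the control libraries, 4, 2, 8 and 2 after SCL and 2, 0, 0 and 0 after ECL, so that 5 of 13 libraries were at 0, which allows levels of up to 3.36 to 5.23 normalized counts there, or 6.72 to 10.5 at 6 counts. The groups overlapped, and in the fit without a minimum it did not pass the test after SCL (adjusted p = 0.756) or ECL (adjusted p = 0.360).

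Sortilin belongs to the VPS10 receptors, of which SorCS2 also binds proneurotrophins together with p75. Sorcs2 rose after both lesions. It was at 258, 272, 272, 278 and 323 normalized counts in control (280.5 ± 24.7, SD, n = 5), at 549, 653, 855 and 368 after SCL (606 ± 203, n = 4) and at 481, 679, 653 and 705 after ECL (629 ± 101, n = 4). Every lesioned culture was above every control, with SCL 4 closest to them. The same held for 11.9% of all genes tested after SCL and 12.8% after ECL. The log2 fold change was 1.12 after SCL (SE 0.22, adjusted p = 0.00526) and 1.17 after ECL (SE 0.19, adjusted p = 0.000709), and the call held in all 21 alternatives of each comparison. Sorcs3 was at 1202 ± 226 in control, 1676 ± 363 after SCL (log2 fold change 0.48, SE 0.18, adjusted p = 0.0692) and 1738 ± 310 after ECL (0.54, SE 0.17, adjusted p = 0.0328). The ECL call of Sorcs3 was lost without control 2, 3 or 4 and without ECL 2, 3 or 4 (adjusted p up to 0.0928 in these fits, and 0.155 over the 10 of 21 alternatives that lost it), and it was gained after SCL without SCL 4 (adjusted p = 0.0211). Sorcs1 and Sorl1 did not pass the test (adjusted p = 0.824 and adjusted p = 0.683 after SCL, adjusted p = 0.285 and adjusted p = 0.789 after ECL). Of the VPS10 receptors, the change of Sorcs2 was thus larger than that of Sort1 on the log2 scale, and whether these changes differ from each other was not tested.

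**Figure D4:**
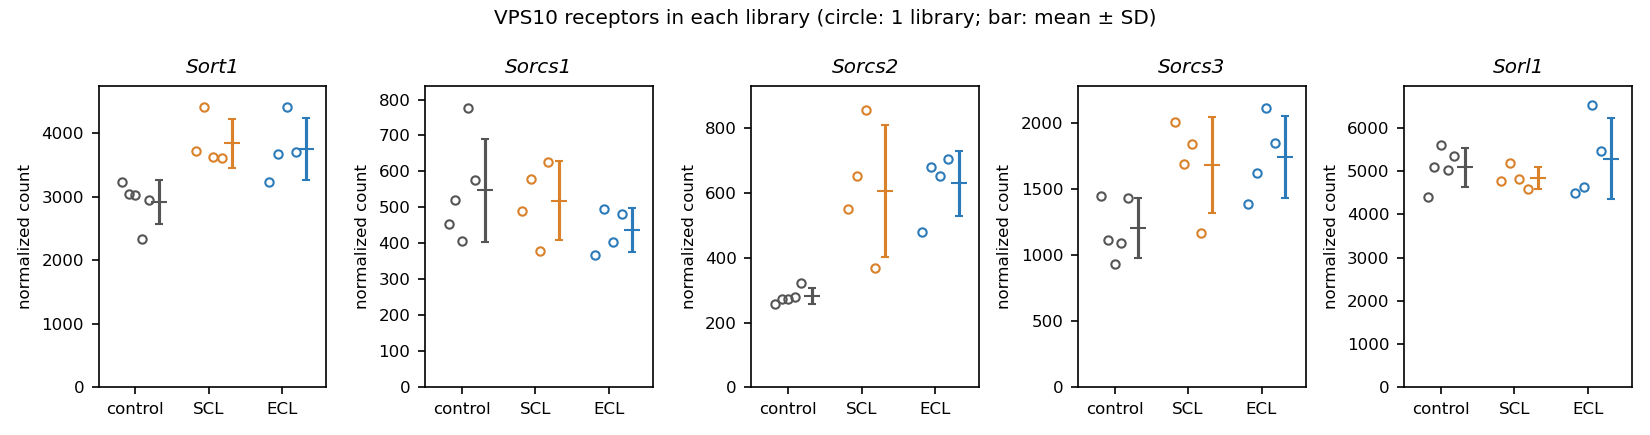
Normalized count of the 5 VPS10 receptors (vertical axes, linear) in every library, with the mean and SD of the control, SCL and ECL groups. Sort1 and Sorcs2 of all 8 lesioned cultures lie above all 5 controls, Sorcs2 at 368 to 855 against 258 to 323, while Sorcs1, Sorcs3 and Sorl1 overlap. Such a position above control was held by 11.9% of all genes tested after SCL and 12.8% after ECL.

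Of 18 genes listed for the cleavage of proneurotrophins and the transport of BDNF, 11 were tested after SCL with 0 higher and 2 lower, and 10 after ECL with 0 higher and 2 lower, beside 24.6% and 27.6% of all genes tested that were called. Htt, encoding huntingtin, which takes part in the axonal transport of BDNF vesicles, fell by 0.66 after SCL (SE 0.19, adjusted p = 0.0238) and fell by 0.59 after ECL (SE 0.19, adjusted p = 0.0326). Its partner Hap1 fell by 0.95 after SCL (SE 0.32, adjusted p = 0.0475), beside -0.74 after ECL (SE 0.31, adjusted p = 0.0968, minimum of 10). The convertase gene Pcsk5 fell by 1.02 after ECL (SE 0.31, adjusted p = 0.0259), beside -0.37 after SCL (SE 0.20, adjusted p = 0.181). Neither passed the test between ECL and SCL (adjusted p = 0.931 for Hap1, minimum of 10, and adjusted p = 0.704 for Pcsk5). The call of Htt was lost without SCL 1, SCL 2 or SCL 3 after SCL (adjusted p up to 0.0758), and after ECL without any 1 of 7 libraries, all but control 4 and ECL 3 (adjusted p up to 0.109). That of Hap1 was lost in 7 of 8 such fits, all but that without control 1 (adjusted p up to 0.122), and that of Pcsk5 without control 1, ECL 3 or ECL 4 (adjusted p up to 0.0763). Over all alternatives, Htt lost its call in 8 of 21 after SCL and 13 of 21 after ECL (adjusted p up to 0.0928 and 0.135), Hap1 in 15 of 20 (up to 0.126) and Pcsk5 in 6 of 21.

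Genes of secretory granule proteins and neuropeptides moved in both directions, and whether their products are stored with BDNF here was not tested. Of 12 such genes 11 were tested, of which 2 rose and 2 fell after SCL, and 3 rose and 2 fell after ECL. Over all genes tested, 24.6% were called after SCL and 27.6% after ECL. Chgb, the granule protein chromogranin B, fell from 7578 ± 771 normalized counts in control (SD, n = 5) to 4305 ± 798 in SCL and 4129.8 ± 537 in ECL cultures (n = 4 each), without overlap in either case (log2 fold change -0.82, SE 0.15, adjusted p = 0.00372, and -0.87, SE 0.14, adjusted p = 0.000741). Likewise, 11.4% of all genes tested lay below control without overlap after SCL and 12.1% after ECL. Npy, a neuropeptide, rose by 1.00 after SCL (SE 0.22, adjusted p = 0.00718) and rose by 0.87 after ECL (SE 0.31, adjusted p = 0.0487), the latter lost in 11 of 21 alternatives (adjusted p up to 0.220), among them those without control 1, 3, 4 or 5 and without ECL 2 or 4. Scg3, secretogranin III, fell by 0.65 after SCL (SE 0.16, adjusted p = 0.0142), beside -0.40 after ECL (SE 0.17, adjusted p = 0.0969). The SCL call was lost in 4 of 21 alternatives (adjusted p up to 0.0939), none of which left out a library.

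Downstream of the Trk receptors, 42 of 46 adaptor and kinase genes were tested. After each lesion 4 were higher, 5 lower and 33 not called, beside 24.6% (SCL) and 27.6% (ECL) of all genes tested that were called. The median log2 fold change of the 42 genes was -0.08 after SCL and -0.20 after ECL. Pik3r1, a regulatory subunit of PI3-kinase, fell by 0.81 after SCL (SE 0.13, adjusted p = 0.00244) and fell by 0.60 after ECL (SE 0.15, adjusted p = 0.00878). The ECL call was lost in 3 of 21 alternatives (adjusted p up to 0.121), none of which left out a library. The adaptor gene Irs2 fell by 0.76 after SCL (SE 0.19, adjusted p = 0.0140) and fell by 0.84 after ECL (SE 0.17, adjusted p = 0.00288), and its SCL call was lost in 2 of 21 alternatives (adjusted p up to 0.0567). Ptpn11, the phosphatase SHP2 that links Trk receptors to the Ras pathway, fell by 0.46 after SCL (SE 0.15, adjusted p = 0.0427) and fell by 0.82 after ECL (SE 0.13, adjusted p = 0.000558), with the SCL call lost in 14 of 21 alternatives (adjusted p up to 0.329), among them the fits without control 1, 2, 3 or 5 and without SCL 1 or 3.

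Adaptors and co-receptors of p75 were present even though Ngfr itself was near 0, and 12 of 13 were tested. Of these, 1 rose and 1 fell after SCL, and 2 rose and 2 fell after ECL. The share of all genes tested that were called was 24.6% after SCL and 27.6% after ECL. Maged1, encoding the p75 interactor NRAGE, fell by 0.64 after SCL (SE 0.14, adjusted p = 0.00828) and fell by 0.66 after ECL (SE 0.15, adjusted p = 0.00677), calls lost in 1 and 2 of 21 alternatives (adjusted p up to 0.0963 and 0.0778). Arhgdia, a GDP-dissociation inhibitor to which p75 binds, rose by 0.87 after SCL (SE 0.27, adjusted p = 0.0336) and rose by 1.12 after ECL (SE 0.26, adjusted p = 0.00677), the former lost in 8 of 21 alternatives (adjusted p up to 0.125), among them those without control 1, 4 or 5 and without SCL 2 or 3. Irak1, a kinase of the p75 and interleukin-1 pathways, fell by 0.48 after ECL (SE 0.14, adjusted p = 0.0178), beside -0.26 after SCL (SE 0.13, adjusted p = 0.176). The ECL call was lost in 6 of 21 alternatives (adjusted p up to 0.287), among them the fit without ECL 4 (0.0503).

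Among feedback inhibitors of receptor tyrosine kinases, 13 of 15 genes were tested. Of these, 1 rose and 3 fell after SCL, and 1 rose and 4 fell after ECL. This stands beside 24.6% and 27.6% of all genes tested that were called. Spry2, a Sprouty protein induced by growth factor signalling, fell by 1.80 after SCL (SE 0.42, adjusted p = 0.00955) and fell by 2.51 after ECL (SE 0.39, adjusted p = 0.000654). Its controls were uneven, at 7354, 5818, 5547, 18755 and 17642 normalized counts in controls 1 to 5. The highest lesioned culture, SCL 1, was at 4562. Of the leucine-rich transmembrane proteins that bind such receptors, Lrig2 fell by 1.11 after SCL (SE 0.17, adjusted p = 0.00178) and fell by 0.93 after ECL (SE 0.17, adjusted p = 0.00183), whereas Lrig1 rose by 1.10 after SCL (SE 0.22, adjusted p = 0.00482) and rose by 1.18 after ECL (SE 0.23, adjusted p = 0.00238). These calls held without any single library.

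Bdnf is itself an activity-regulated gene, and 14 of 15 other activity and CREB response genes were tested beside it. After each lesion 7 of these fell and 0 rose, with a median log2 fold change of -0.74 after both. Over all genes tested, 11.6% were called lower after SCL and 12.4% after ECL. Egr1, an immediate early transcription factor gene, fell by 2.26 after SCL (SE 0.19, adjusted p = 4.96e-05) and fell by 2.08 after ECL (SE 0.18, adjusted p = 2.09e-05). It was at 9246 to 14591 normalized counts in control, 2149 to 3208 after SCL and 2397 to 3385 after ECL. Fos fell by 1.53 after SCL (SE 0.18, adjusted p = 0.000889) and fell by 1.93 after ECL (SE 0.21, adjusted p = 8.90e-05), and Arc, which encodes a postsynaptic protein, fell by 1.95 after SCL (SE 0.18, adjusted p = 0.000139) and fell by 1.23 after ECL (SE 0.24, adjusted p = 0.00232). The values of Bdnf in the same libraries, -0.26 and -0.66, were closer to 0, and the difference between genes was not tested.

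**Figure D5:**
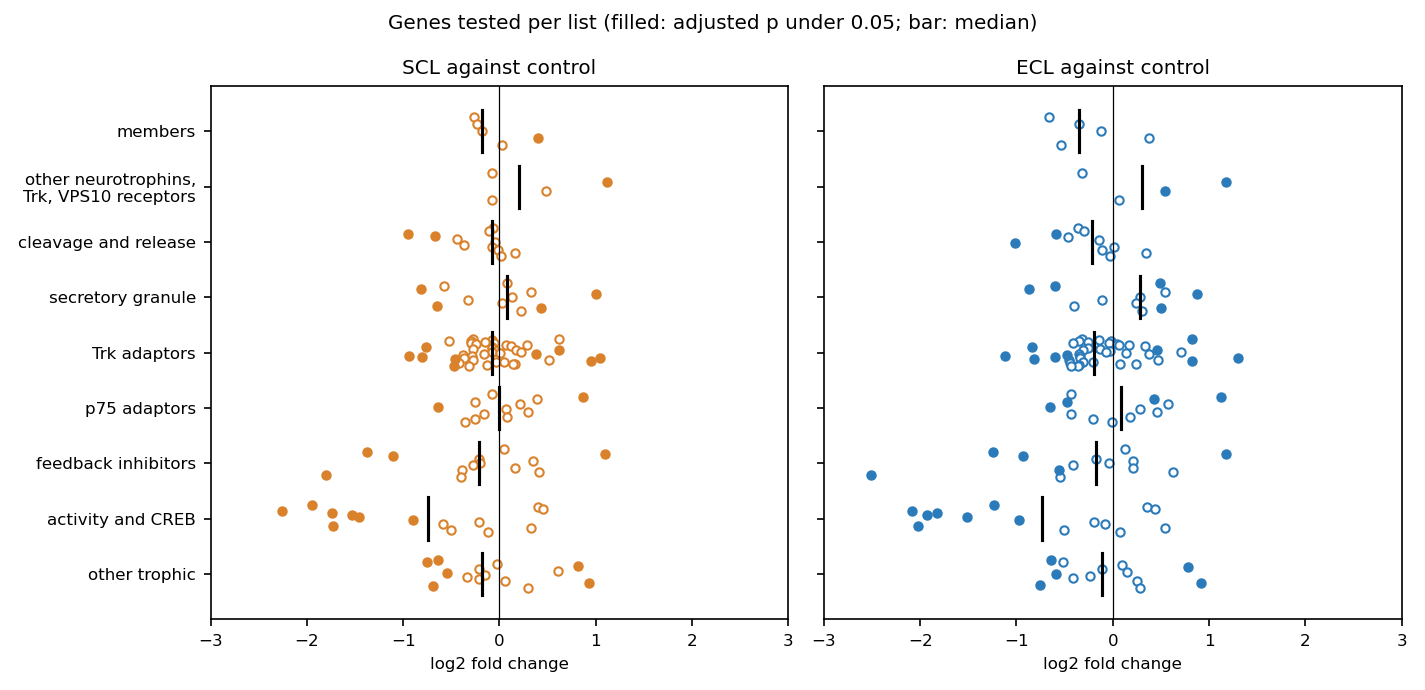
Log2 fold change (horizontal axes) of each gene tested in the 7 genes described here (top line) and in 8 lists of related genes, for SCL and for ECL against control, filled where the adjusted p was under 0.05, with a bar at the median of the list. The activity and CREB response genes have 7 filled points below 0 and none above it after each lesion, with a median of -0.74, while most other lists have filled points on both sides. Over all genes tested, 11.6% were called lower after SCL and 12.4% after ECL.

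Finally, the genes whose pattern was most like that of each gene were found by Pearson's r of log2(normalized count + 1) over the 13 libraries, among 11871 genes. The libraries share groups, depth and cell makeup, so r is given as a description. Bdnf was most like Gm2a (r = 0.915), Zfp385b (r = 0.907) and Tpbg (r = 0.900). For Ntrk2 these were Pla2g15 (r = 0.975), Cpsf7 (r = 0.973) and Plekha7 (r = 0.958), and for Ntrk3 they were Pdcd7 (r = 0.886), Gm31305 (r = 0.879) and Ubp1 (r = 0.875). Sort1 was most like Dgkz (r = 0.921), Fam163b (r = 0.918) and St8sia5 (r = 0.917), and Vgf most like Osbpl3 (r = 0.849), Ptprn (r = 0.832) and Cotl1 (r = 0.828). Among the genes described here, the pair with the highest r was Ntrk2 and Vgf (r = 0.676), and Bdnf and its receptor gene Ntrk2 had r = 0.182.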

How the data were processed

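RNA from single CA1 isolates was amplified from polyadenylated RNA with a low-input kit and sequenced as pairs. Per the labels, the authors trimmed reads with cutadapt 3.5, mapped them with STAR 2.7.8a to mm10 (GRCm38) and counted them per gene with featureCounts 2.0.1, without regard to strand on GENCODE M25. The deposited values are raw counts, 1 table per library. Amplified reads without molecular identifiers are not independent molecules, so limits for counts of 0 cover counting error only.

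Groups came from the sample titles. By the column headings, 2 controls were male and 3 female. In the SCL group 1 was male and 3 female, and in the ECL group 3 were male and 1 female. Sex was thus unevenly spread, most of all between ECL and SCL. SCL and control, ECL and control, and ECL and SCL were each fitted separately with edgeR 4.0.16 (R 4.3.3): genes whose mean normalized count reached 150, TMM factors over the genes tested, glmQLFit and glmQLFTest, two-sided, Benjamini-Hochberg adjustment over all genes tested, threshold 0.05. Standard errors were obtained from the log2 fold change and the F statistic (ratio of the former to the root of the latter). Genes under the minimum were taken from fits with a minimum of 10 or none. The code was tested on simulated data. Display values use TMM factors over all 13 libraries. TPM and exon overlaps used GENCODE M21, in which 53292 of 55291 symbols were found, while promoters came from RefSeq. The 7 genes and all lists were chosen with earlier results of these data known. From each list of related genes, up to 3 called genes with the smallest adjusted p after SCL or ECL were named, and Ntf5 and the VPS10 receptors in full, while other genes of that list are not reported here. Alternatives were DESeq2 1.42.0, other scalings and minimums, 1 fit of all libraries, halved counts (between 63.0% and 74.3% of values from 1 to 20 were even, as when both mates of a pair are counted), a sex term (sex read from the column headings), a threshold of 0.01, the replicate number as a block and leaving out each library. After seeing the data, a number that stands in the headings of the count columns was added as a block, alone and together with the sex term. All 13 libraries were used, and no 2 held identical counts.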

Additional observations from a re-analysis of the deposited data

Results flagged for a closer look

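In SCL 1, Bdnf was at 9187 normalized counts, while the other 3 SCL libraries lay between 5618 and 6158, and the gap took 0.849 of the range of the group. Without this library the log2 fold change of Bdnf after SCL was -0.45 (adjusted p = 0.271). In SCL 2, Sort1 was at 4417 normalized counts, while the other 3 lay between 3608 and 3717, and the gap took 0.865 of the range. Without this library Sort1 had a log2 fold change of 0.33 (adjusted p = 0.129), so that the call was lost. In both cases 1 library stood far from the rest of its group. Of 21 groups of values examined for the 7 genes, 2 stood out in this way, and chance gives about 1 in 20.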

How the results depend on the processing

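Of 425 alternative values for the 7 genes, 380 kept their direction and their side of the threshold, 14 lost a call, all of Sort1 after SCL, 10 gained one, all after ECL, and 21 changed sign. Of 1086 for the other genes named, 960 kept both, 112 lost a call, 5 gained one and 9 changed sign. Causes were not tested.

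The number of the 7 genes called after SCL, 1, was 0 with the sex term, at a threshold of 0.01, with the heading number as a block, with that block and the sex term, and without each library in turn (0 in all 9 fits). After ECL, 0 became 2 with DESeq2 (Bdnf and Ntrk2), 1 (Sort1) with TMM factors over all symbols, with 1 fit of all libraries, with a minimum of 10 and without a filter, and 0 to 1 without single libraries. Genes called after SCL were 1050 at a threshold of 0.01, 1824 with the heading number block, 1342 with that block and the sex term, 5390 without a filter and 1672 to 2828 without single libraries. After ECL they were 1495 at a threshold of 0.01, 1383 with the heading number block and the sex term, 4825 with a minimum of 10 and 8034 without a filter. Between ECL and SCL they were 64 with DESeq2, 1 with 1 fit of all libraries, 1 with the sex term, 2 with the heading number block and the sex term, 217 without a filter, and 0 to 54 without single libraries.

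Changes of sign concerned values near 0 or at low counts. With TMM factors over all symbols and without a filter, Ntrk3 was at 0.0236 and 0.0235 after SCL and at 0.0676 and 0.0676 after ECL, Sorcs1 after SCL at 0.13 and 0.13, and Sorl1 after SCL at 0.135 and 0.135. With a minimum of 10, Sorcs1 was at 0.011 and Sorl1 at 0.015 after SCL. With the heading number block, Ngfr was at 0.75 after SCL and 0.56 after ECL, and with that block and the sex term at 0.34, 0.84 and, between ECL and SCL, 1.09, where the sex term alone gave 0.73. Without single libraries, Ngfr was at -1.09 to 0.74 after SCL, at -1.20 to 0.26 after ECL and at -0.97 to 0.39 between both lesions. In the same fits Vgf after SCL was at -0.055 to 0.16, Sort1 between ECL and SCL at -0.11 to 0.050, Sorcs1 after SCL at -0.18 to 0.073 and Sorl1 after ECL at -0.056 to 0.14.

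Whether the replicate numbers of the titles pair the cultures is not given in the sources used here. Deviations of same-numbered libraries from their group means had correlations of -0.131 to 0.226 between SCL and control. They were -0.142 to 0.403 between ECL and control and -0.147 to 0.529 between ECL and SCL. These values do not decide it, as differently numbered libraries were not compared in this way. With the replicate number as a block, a fit that leaves out control 5, 2358 genes and 0 of the 7 were called after SCL (Sort1 adjusted p = 0.0659), 2693 genes and 0 of the 7 after ECL, and 0 genes between ECL and SCL. Per library, Ntf3, Ntf5 and Ngfr had 0 to 130, 0 to 8 and 0 to 31 counts.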

Other observations

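Of 22 genes of the GDNF, CNTF, midkine, insulin-like growth factor, FGF and neuregulin systems, 14 were tested after SCL with 2 higher and 4 lower, and 13 after ECL with 2 higher and 3 lower, so that 8 genes were not called in each comparison. Of all genes tested, 24.6% and 27.6% were called. Gfra1, the GDNF co-receptor, rose by 0.81 after SCL (SE 0.16, adjusted p = 0.00528) and rose by 0.78 after ECL (SE 0.16, adjusted p = 0.00269). Mdk, which encodes the heparin-binding growth factor midkine, rose by 0.93 after SCL (SE 0.20, adjusted p = 0.00714) and rose by 0.92 after ECL (SE 0.21, adjusted p = 0.00545). Igf1r, the insulin-like growth factor receptor gene, fell by 0.54 (SE 0.15, adjusted p = 0.0208, up to 0.0644 without SCL 1 or SCL 3, which lost the call) and by 0.59 (SE 0.13, adjusted p = 0.00482), and these calls were lost in 7 and 2 of 21 alternatives (adjusted p up to 0.204 and 0.117).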
